A study of Mus musculus with 26 samples.

Results

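The epithelial keratins Krt8, Krt18 and Krt19, the adhesion genes Cdh1 and Epcam, the claudins Cldn4, Cldn6 and Cldn7, the junction scaffold Tjp3 and the splicing factor Esrp1 were followed through retinoic acid treatment of mouse embryonic stem cells with and without the histone chaperone NAP1L1. They were chosen by name and are 10 of the 55471 genes in the count table. All 10 were among the 18412 genes with enough counts to be tested. RNA-seq was made from KH2 cells, an established mouse embryonic stem cell line, in 3 genotypes: wild type (WT), a NAP1L1 alpha knock-out (alphaKO) and a NAP1L1 knock-out (fullKO). Each genotype was sampled on days 0, 2 and 4 of retinoic acid in 3 libraries per group, except fullKO on day 0, which had 2 (26 libraries in all). Each knockout genotype was 1 line, so the genotype and the line cannot be told apart. No later day without retinoic acid was analysed here, so the treatment and the time in culture cannot be told apart either. The labels do not say that replicates were separate cultures, and p-values then measure the spread among these libraries, which may be technical. Knockout results on days 0, 2 and 4 use the WT libraries of the same day, which both knockouts share as controls.

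Simple epithelia build their intermediate filaments from KRT8 paired with KRT18, with KRT19 as a further acidic partner. E-cadherin, the product of Cdh1, joins neighbouring cells at adherens junctions, and EPCAM is an adhesion molecule of epithelial and embryonic stem cells. Claudins form the strands of tight junctions that seal the space between cells, and TJP3 (ZO-3) is a scaffold protein beneath those strands. ESRP1 is an RNA-binding protein that directs the epithelial pattern of splicing in many transcripts. Embryonic stem cells make E-cadherin and EPCAM before any treatment, and simple keratins appear early when such cells differentiate.

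All positions are on GRCm38 (mm10), from GENCODE M21, and each interval spans the whole gene with its exons and introns. Krt8 (ENSMUSG00000049382.10, chr15:101996698-102004482, minus strand) and Krt18 (ENSMUSG00000023043.7, chr15:102028180-102032027, plus strand) lie back to back with 23697 bases between them. Krt19 (ENSMUSG00000020911.14) is at chr11:100140810-100148665, Cdh1 (ENSMUSG00000000303.12) at chr8:106603351-106670246 and Epcam (ENSMUSG00000045394.9) at chr17:87635979-87651129. Esrp1 (ENSMUSG00000040728.15) is at chr4:11331933-11386783. The claudins Cldn4 (ENSMUSG00000047501.3, chr5:134945119-134946934), Cldn6 (ENSMUSG00000023906.3, chr17:23679249-23682446) and Cldn7 (ENSMUSG00000018569.12, chr11:69964779-69967885) sit on different chromosomes. Tjp3 (ENSMUSG00000034917.8, chr10:81273207-81291581) overlaps Apba3 on the opposite strand, which had 303 to 753 counts per library against 28 to 320 for Tjp3. The library kit keeps strand, but whether the counting used it is not stated in any source used, and reads of Tjp3 and Apba3 may not be separated. Krt8 is overlapped by Gm36026 on the opposite strand, which had 0 to 9 counts per library against 96 to 12987 for Krt8, and the pseudogene Krt8-ps had 0 to 18. Esrp1 overlaps Gm26663 on the opposite strand.

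Sequence upstream of the start was in the RefSeq promoter table (GRCm38.p6) for 7 of the 10 genes in 9 entries, with none for Krt19, Cdh1 and Esrp1. The E-box letters CAGGTG, or CACCTG on the other strand, were searched because SNAI and ZEB repressors of epithelial genes are known to bind them. They occurred in the 250 bases before the RefSeq start in 8 of the 9 entries and in all 7 genes, against 17.2% of 32851 promoter windows of that length. Some windows reach into the gene as GENCODE annotates it. The matches of Krt8, Cldn6 and Cldn7, and that of the Tjp3 entry not printed below, lie inside the annotated gene. The Cldn7 window outside its gene held no match. The 17.2% is over whole windows, with no such division. No entry held AACCGGTT (a grainyhead motif, in 0.116% of windows), a direct-repeat retinoic acid response element (0.00913%) or TATAAA (12.4%), each searched on both strands. A match is a description of letters, and no binding was measured here. The stretches of Epcam (chr17:87635729-87635978, plus strand), Cldn4 (chr5:134946935-134947184, minus strand), Krt18 (chr15:102027966-102028179, plus strand) and Tjp3 (chr10:81291582-81291831, minus strand) that lie outside the annotated gene are shown 5′ to 3′. They carry the motif and stand for different directions of change between days. Capitals mark the E-box letters.
Epcam: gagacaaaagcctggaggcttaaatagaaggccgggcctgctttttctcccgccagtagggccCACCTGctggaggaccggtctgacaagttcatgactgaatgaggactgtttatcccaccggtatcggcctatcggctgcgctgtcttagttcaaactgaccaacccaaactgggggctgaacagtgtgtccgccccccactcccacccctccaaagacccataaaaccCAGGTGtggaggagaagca
Cldn4: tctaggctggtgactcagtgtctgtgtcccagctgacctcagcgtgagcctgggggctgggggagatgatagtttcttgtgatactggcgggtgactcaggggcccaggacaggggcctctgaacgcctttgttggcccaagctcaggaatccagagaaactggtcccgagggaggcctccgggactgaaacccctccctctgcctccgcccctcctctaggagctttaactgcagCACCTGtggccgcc
Krt18: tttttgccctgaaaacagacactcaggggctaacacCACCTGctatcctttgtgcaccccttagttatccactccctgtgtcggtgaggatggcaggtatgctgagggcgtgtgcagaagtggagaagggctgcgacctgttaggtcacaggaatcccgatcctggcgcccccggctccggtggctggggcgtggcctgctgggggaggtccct
Tjp3: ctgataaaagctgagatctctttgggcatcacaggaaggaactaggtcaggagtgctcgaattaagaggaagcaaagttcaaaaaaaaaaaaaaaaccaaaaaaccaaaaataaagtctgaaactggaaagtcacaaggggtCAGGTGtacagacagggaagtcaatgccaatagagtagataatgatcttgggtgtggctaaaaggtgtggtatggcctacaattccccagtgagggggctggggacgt
Epcam held the motif 2 times and the other 3 stretches held it 1 time each. Of these 4 genes, Krt18 and Cldn4 rose between day 0 and the later days in WT cells while Epcam and Tjp3 fell, so the motif was present on both sides.

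Total counts ran from 13537267 to 20569706 per library. Nap1l1 itself had mean levels of 1025, 599 and 399 CPM (counts scaled to library size) on day 0 in WT, alphaKO and fullKO, and was lower in both knockouts on every day. Transcript remained in both, and where the alleles were cut is not stated in any source used, so the gene's count checks the labels only in this direction. The pluripotency markers Pou5f1, Sox2 and Nanog averaged 615.5, 543.5 and 228.5 CPM in WT on day 0, so the defining markers of the labelled cell type were present. Fibroblast markers were also present: 10 listed genes summed to 2165 to 2865 CPM in WT, 1150 to 1789 in alphaKO and 232 to 352 in fullKO on day 0, and none was at 0. The corresponding sums were 931 to 1036, 279 to 378 and 122 to 138 on day 2, and 3960 to 4201, 1072 to 1434 and 1196 to 1462 on day 4. Summed pluripotency markers (7 genes) were higher in both knockouts on every day, at 86.1 to 94.6 CPM in WT, 248 to 266 in alphaKO and 364 to 377.5 in fullKO on day 4. Both sums differed between the knockouts and WT on every day, and their part in the differences of the 10 genes was not tested. On day 4 the fibroblast sums of alphaKO and fullKO overlapped, and the pluripotency sums were higher in fullKO than in alphaKO. On that day 9 of the 10 genes were higher in fullKO than in alphaKO (15.4% of all genes were). In bulk RNA, fewer cells of a type and less RNA per cell cannot be told apart.

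All 10 genes changed in WT cells between day 0 and day 2 of retinoic acid, with 7 rising and 3 falling. Across all genes tested 36.6% rose and 33.9% fell, so 70.6% of them passed the same test (edgeR, adjusted p under 0.05), and a call as such was common. The 3 keratins, the 3 claudins and Cdh1 rose, and Epcam, Esrp1 and Tjp3 fell. The same split held on day 4 against day 0, when 77.3% of all genes were called. Between days 2 and 4 in WT, 7 genes were called (59.3% of all genes), and Cdh1, Cldn7 and Tjp3 were not.

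The keratins made the largest moves of the 10 genes. Krt8 stood at 5.96, 7.01 and 6.34 CPM in the 3 WT libraries of day 0, at 390.5, 383 and 381 on day 2 and at 781, 702 and 746 on day 4. No libraries of different days overlapped. Its log2 fold change was 5.90 ± 0.20 (SE) from day 0 to day 2 (adjusted p = 3.68e-17) and a further 0.95 ± 0.10 to day 4 (adjusted p = 1.54e-07). Krt18, the filament partner of Krt8, went from 12.3, 12.1 and 8.45 CPM to 398, 379 and 366.5 and then to 865, 748 and 782, a log2 fold change of 5.11 ± 0.17 by day 2. Krt19 began close to silence, with 39, 30 and 14 counts in the WT libraries of day 0. It reached 58.2, 58.7 and 59.1 CPM on day 2 and 292, 259 and 278 on day 4, and its later step was the steeper of the 3 keratins at 2.23 ± 0.12 between days 2 and 4.

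In the knockouts the keratins also rose from day 0, but to lower levels on both later days. On day 2 Krt8 was at 216, 200.3 and 193 CPM in alphaKO and at 181, 179 and 198 in fullKO, all below the lowest WT library. By day 4 it was at 311, 234 and 221 in alphaKO and at 474, 455 and 564 in fullKO, so the fullKO libraries lay between the other genotypes. The log2 difference from WT was -0.92 ± 0.10 in alphaKO (adjusted p = 7.6e-07) and -1.05 ± 0.10 in fullKO (adjusted p = 9.17e-08) on day 2. On day 4 it was -1.54 ± 0.10 in alphaKO and -0.58 ± 0.10 in fullKO. Before retinoic acid the direction was the opposite: Krt8 was at 12.1, 13.8 and 15.97 CPM in alphaKO versus 11.01 and 13.1 in fullKO, above every WT library. The day 0 difference was 1.12 ± 0.23 in alphaKO (adjusted p = 0.000421) and 0.90 ± 0.26 in fullKO (adjusted p = 0.0101). The fullKO call rested on its second library, since without it the difference was 0.78 with an adjusted p of 0.096.

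Krt18 did not share the day 0 difference, with 9.36, 10.7 and 10.5 CPM in alphaKO versus 10.6 and 9.91 in fullKO inside the WT range (adjusted p = 0.741 and 0.803). It was lower on day 2 in both knockouts, at 272, 260 and 244 CPM in alphaKO versus 243, 241 and 270 in fullKO. The day 2 differences from WT were -0.56 ± 0.11 and -0.60 ± 0.11, the smallest of the called members on that day. On day 4 Krt18 reached 346, 268 and 259 CPM in alphaKO versus 471.5, 488 and 601 in fullKO, with differences of -1.46 ± 0.11 and -0.62 ± 0.10. Krt19 showed the largest keratin differences on both days. It was at 20.7, 17.6 and 20.8 CPM in alphaKO versus 17.8, 14.4 and 15.4 in fullKO on day 2, against 58.2 to 59.1 in WT. Day 4 levels were 73.4, 53.4 and 54.7 CPM in alphaKO versus 99.5, 96.4 and 122 in fullKO, with differences from WT of -2.19 ± 0.12 and -1.38 ± 0.11. At day 0 Krt19 counts were 14 to 67 in all genotypes and no difference was called (adjusted p = 0.138 in alphaKO and 0.833 in fullKO), though DESeq2 and a fit of only these groups called Krt19 higher in alphaKO (0.76 and 0.81, adjusted p = 0.00593 and 0.0396). From day 2 to day 4 in alphaKO, Krt8 rose by 0.33 ± 0.11, and this call was lost without its first day 4 library (0.16, adjusted p = 0.106), while the change in Krt18, 0.17 ± 0.11, was not called (adjusted p = 0.183).

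**Figure D1:**
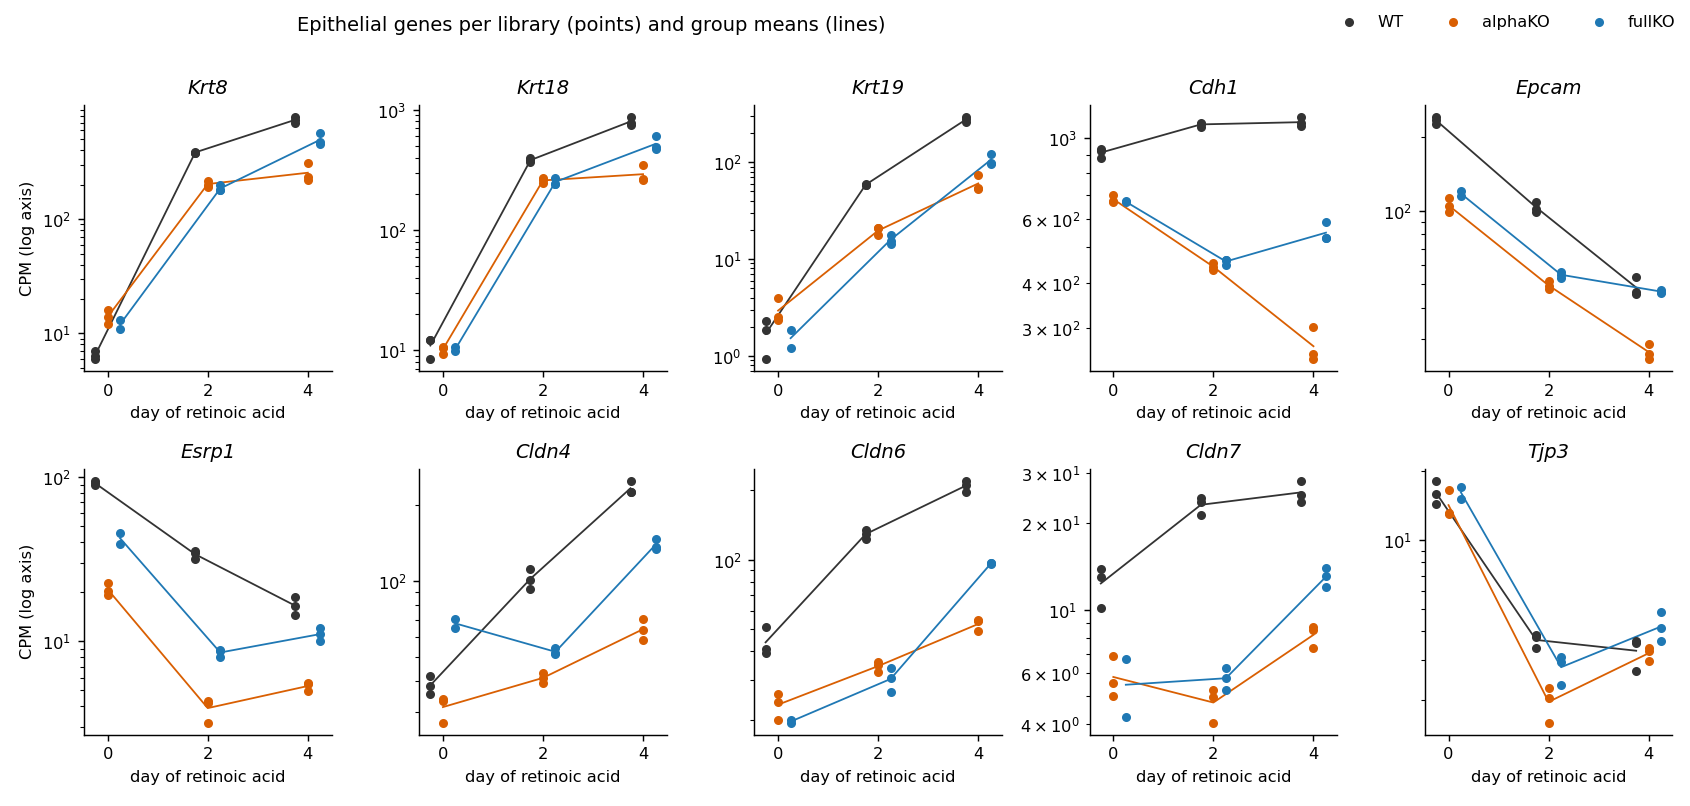
CPM (log axis) of each of the 10 genes by day in WT, alphaKO and fullKO, with 1 point per library and lines through the group means. Keratins start between 0.924 and 15.97 CPM on day 0 in every genotype. On day 2 the WT libraries stand above both knockouts, whose libraries overlap, on day 4 all 3 genotypes are apart, and Cdh1 goes up in WT and down in both knockouts.

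Cdh1, encoding E-cadherin, rose in WT and fell in both knockouts between day 0 and day 2. In WT it stood at 925, 932.5 and 882 CPM on day 0, 1098, 1105 and 1075 on day 2 and 1143, 1083 and 1099 on day 4. That is a small rise of 0.26 ± 0.04 on the log2 scale by day 2 (adjusted p = 1.92e-06) and no called change after it (0.02, adjusted p = 0.715). In alphaKO the gene fell at each step, from 666, 699 and 674 CPM to 453, 432 and 442 and then to 301, 254 and 246. In fullKO it fell from 672 and 665.5 CPM to 463, 447 and 463 on day 2, then rose to 530.5, 530.2 and 587 on day 4 (0.26 ± 0.05, adjusted p = 2.36e-06). Both knockouts were below every WT library on all 3 days. The alphaKO difference from WT widened from -0.43 ± 0.04 on day 0 to -1.30 ± 0.04 on day 2 and -2.05 ± 0.05 on day 4 (adjusted p = 1.81e-33). The fullKO difference was -0.45 ± 0.05, -1.26 ± 0.04 and -1.01 ± 0.04 on the same days.

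Epcam fell over the days of retinoic acid in every genotype, and its genotype differences were already present on day 0. WT libraries went from 235, 241 and 227 CPM to 102, 109 and 98.7 on day 2 and to 53.7, 45.7 and 46.4 on day 4. The alphaKO libraries went from 98.7, 113 and 104 CPM to 47.8, 49.2 and 51.6 and then to 26.02, 28.6 and 24.8. The fullKO libraries went from 114 and 120.5 CPM to 54.8, 56.4 and 53.0 and then to 46.2, 46.7 and 47.2. On day 4 the fullKO and WT libraries overlapped. Differences from WT in alphaKO were -1.16 ± 0.05, -1.06 ± 0.06 and -0.87 ± 0.07 on days 0, 2 and 4. In fullKO they were -0.997 ± 0.06 and -0.91 ± 0.06 on days 0 and 2, and -0.05 ± 0.06 on day 4, which was not called (adjusted p = 0.515).

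The 3 claudins rose in WT cells at both comparisons with day 0. Cldn4, a sealing claudin, went from 41.7, 38.1 and 35.5 CPM to 111.5, 92.8 and 101 on day 2 and to 224, 225 and 249 on day 4. Its log2 fold change was 1.40 ± 0.08 by day 2 and 2.60 ± 0.07 by day 4. Cldn6, a claudin of early embryonic epithelium, went from 51.2, 40.8 and 39.1 CPM to 135, 123 and 129 and then to 220, 197 and 211.5. Cldn7 was the least abundant claudin and rose least, from 12.97, 13.9 and 10.2 CPM to 24.5, 21.4 and 23.7 on day 2, with no called change to day 4 (25.02, 23.8 and 28.1, adjusted p = 0.284). All days were distinct for Cldn4 and Cldn6, and days 2 and 4 overlapped for Cldn7.

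Cldn4 was the claudin in which the knockouts differed from WT in opposite directions before treatment. On day 0 it was at 27.3, 33.2 and 34.01 CPM in alphaKO, below WT (-0.29 ± 0.08, adjusted p = 0.00561), and at 64.9 and 70.5 in fullKO, above WT (0.81 ± 0.09, adjusted p = 1.28e-09). The alphaKO call was lost without its first day 0 library (-0.19, adjusted p = 0.0528). On day 2 both were below WT, with alphaKO at 39.2, 41.3 and 42.9 CPM and fullKO at 54.1, 51.4 and 51.1. The fullKO line thus fell from day 0 to day 2 (-0.37 ± 0.08, adjusted p = 0.00017) where WT rose. By day 4 Cldn4 stood at 70.5, 63.7 and 58.4 CPM in alphaKO versus 137, 134 and 147 in fullKO, with differences from WT of -1.86 ± 0.07 and -0.75 ± 0.06.

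Cldn6 was lower in both knockouts on all days, with no overlap with WT. Day 2 levels were 36.1, 32.6 and 34.7 CPM in alphaKO versus 33.9, 26.6 and 30.4 in fullKO, a log2 difference of -1.91 ± 0.08 and -2.09 ± 0.08. Day 4 levels were 54.7, 48.8 and 54.01 CPM in alphaKO versus 96.2, 95.55 and 96.3 in fullKO, with differences of -1.997 ± 0.08 and -1.12 ± 0.07. Day 0 differences were -0.90 ± 0.09 and -1.15 ± 0.11. Cldn7 was also lower in both knockouts on all days, and its widest differences were on day 2, at -2.29 ± 0.14 in alphaKO (5.25, 4.04 and 4.96 CPM) and -2.01 ± 0.13 in fullKO (5.27, 5.79 and 6.27 CPM). Neither knockout changed Cldn7 by a called amount from day 0 to day 2 (adjusted p = 0.0853 and 0.689). By day 4 it was at 8.51, 7.34 and 8.68 CPM in alphaKO versus 13.97, 11.98 and 13.1 in fullKO, against 23.8 to 28.1 in WT.

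Tjp3, the scaffold gene, fell from day 0 to day 2 in every genotype and differed from WT by a called amount in 1 of 6 comparisons. In WT it fell from 18.1, 15.8 and 14.3 CPM to 3.78, 3.86 and 3.37 on day 2 (-2.13 ± 0.16, adjusted p = 9.22e-20) and was at 2.68, 3.57 and 3.62 on day 4. Day 0 levels were 12.96, 13.1 and 16.5 CPM in alphaKO versus 15.2 and 17.0 in fullKO, overlapping WT. That difference was in alphaKO on day 2, at 1.60, 2.05 and 2.26 CPM (-0.89 ± 0.21, adjusted p = 0.000279). In fullKO on day 2 it was at 2.33, 3.09 and 2.95 CPM. From day 2 to day 4 Tjp3 rose in both knockouts, to 3.28, 3.40 and 2.96 CPM in alphaKO (0.70 ± 0.21, adjusted p = 0.00296) and to 4.87, 3.62 and 4.12 in fullKO (0.58 ± 0.18, adjusted p = 0.00466). WT had no called change over those days (-0.14, adjusted p = 0.546). Its neighbour on the opposite strand may share these counts, as given with its position.

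Esrp1 fell in all genotypes and carried the largest difference from WT among the 10 genes in alphaKO on day 2. WT libraries were at 94.7, 91.5 and 88.8 CPM on day 0, 34.4, 31.9 and 35.2 on day 2 and 16.3, 14.35 and 18.6 on day 4. In alphaKO the day 0 libraries were at 20.3, 19.1 and 22.6 CPM, near the WT level of day 4, and later libraries were at 4.22, 4.31 and 3.18 on day 2 and 4.98, 5.53 and 5.47 on day 4. In fullKO the libraries were at 45.4 and 39.2 CPM on day 0, 8.05, 8.83 and 8.69 on day 2 and 10.03, 12.1 and 11 on day 4. The 3 genotypes did not overlap on any day, and the order was WT, fullKO, alphaKO throughout. The alphaKO differences from WT were -2.15 ± 0.08, -3.12 ± 0.13 (adjusted p = 8.57e-35) and -1.62 ± 0.12 on days 0, 2 and 4. The fullKO differences were -1.11 ± 0.09, -1.99 ± 0.10 and -0.57 ± 0.10. Between days 2 and 4 Esrp1 fell in WT (-1.04 ± 0.09) and rose in alphaKO (0.45 ± 0.15) and fullKO (0.38 ± 0.11). The alphaKO rise was lost without replicate 3 of day 2 (0.32, adjusted p = 0.084).

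Levels of different genes were compared per kilobase of annotated exon. In WT on day 0 the most abundant transcript per length was Cdh1, with 199.7 CPM per kb, then Epcam with 107 and Cldn6 with 25.4, while Krt8 and Krt19 came last with 3.29 and 0.907. By day 4 Krt18 (555.5 CPM per kb) and Krt8 (380) stood above Cdh1 (242) and Krt19 (149), and Epcam had gone to 22.1. In alphaKO on day 4 the same first 3 genes stood at 203, 130 and 58.4 CPM per kb, and in fullKO at 362, 254 and 120.

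**Figure D2:**
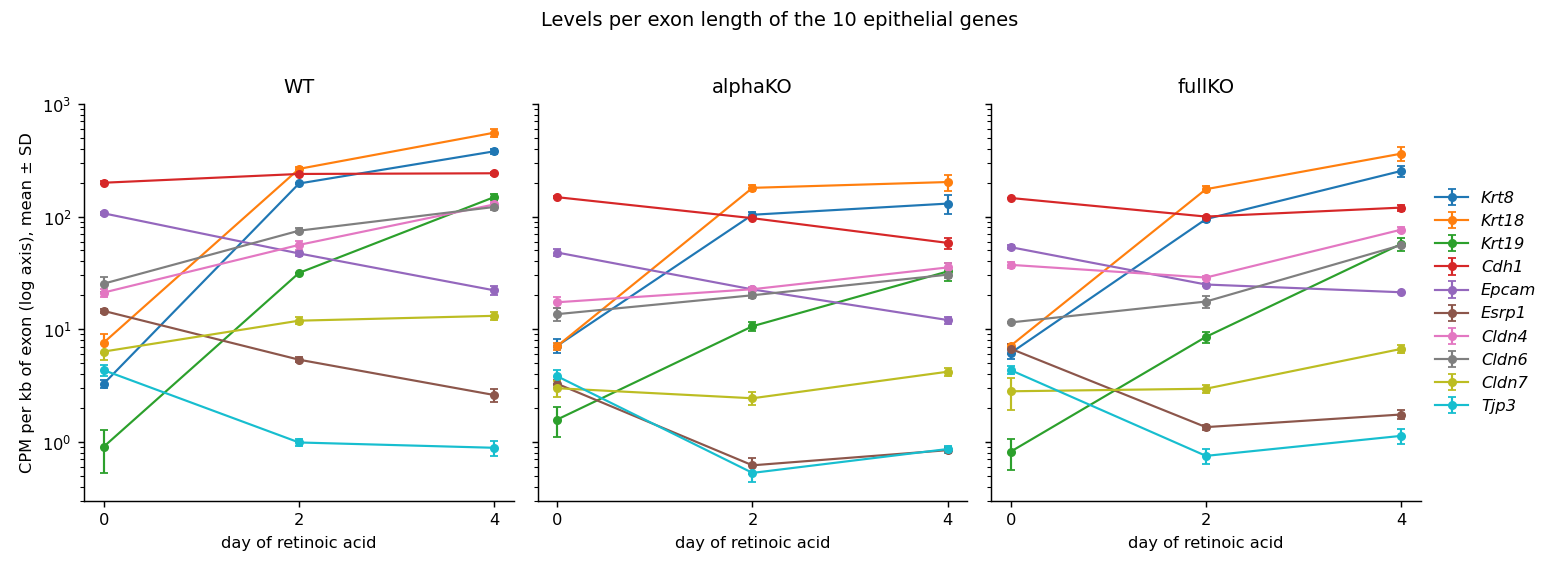
Mean CPM per kilobase of exon (log axis) of the 10 genes in each genotype on each day, with error bars of 1 SD over libraries. In WT Krt18 and Krt8 stand above Cdh1 on day 4, at 555.5 and 380, while Krt19 (149) stays below it.

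Counted over the set, on day 0 alphaKO had 1 gene higher (17.6% of all genes were) and 6 lower (20.9%), and fullKO had 2 higher (16.3%) and 5 lower (17.9%). On day 2 all 10 were lower in alphaKO (20.3% of all genes) and 9 in fullKO (23.8%), with Tjp3 the exception in fullKO (-0.39, adjusted p = 0.0857). On day 4, 9 were lower in alphaKO (23.9%) and 8 in fullKO (24.6%). The median log2 difference of the 10 genes from WT was -0.36, -1.31 and -1.64 in alphaKO on days 0, 2 and 4, where the median over all genes tested was -0.03, 0.01 and 0.06. In fullKO it was -0.32, -1.15 and -0.68, against -0.01, 0.02 and 0.02 over all genes. All libraries of alphaKO lay below all WT libraries for 6, 10 and 9 genes on days 0, 2 and 4, and those of fullKO for 5, 10 and 8. Libraries of alphaKO and WT did not overlap, in either direction, for 44.6%, 49.2% and 58.7% of all genes on those days, and those of fullKO and WT for 53.9%, 54.4% and 56.0%.

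**Figure D3:**
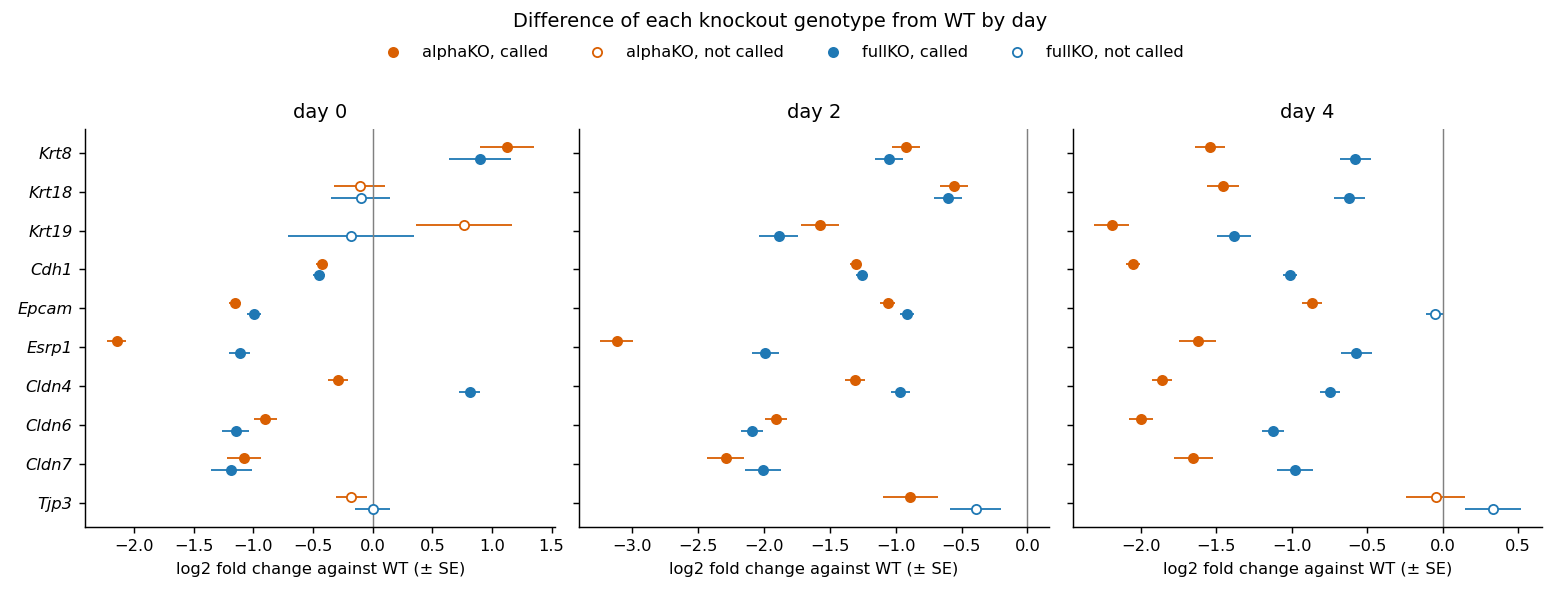
Log2 difference from WT of the 10 genes on each day in alphaKO and fullKO, with error bars of 1 SE from the edgeR fit and filled points where the adjusted p was under 0.05. Most points lie below 0 on days 2 and 4, Krt8 lies above 0 on day 0 in both lines, and Cldn4 lies above 0 on day 0 in fullKO.

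Fewer of the 10 genes were called between the 2 knockouts on days 0 and 2 than on day 4. On day 0 the call rule found 3 genes higher in fullKO than in alphaKO (14.7% of all genes): Cldn4 by 1.10 ± 0.09, Esrp1 by 1.03 ± 0.10 and Epcam by 0.16 ± 0.06. The Epcam call (adjusted p = 0.0347) was lost without alphaKO replicate 1 or 3, without either fullKO library, with DESeq2, with the replicate block and when only these groups were fitted, with adjusted p-values of 0.0556 to 0.295. On day 2 the higher genes were Esrp1 (1.13 ± 0.14) and Cldn4 (0.34 ± 0.08), 2 genes, where 12.2% of all genes were higher. When only these groups were fitted, 6 genes were called on day 2, with Epcam also higher in fullKO (0.14, adjusted p = 0.044) and Krt8 (-0.13, adjusted p = 0.00953), Krt19 (-0.31, adjusted p = 0.00686) and Cldn6 (-0.19, adjusted p = 0.0439) lower. Without the first fullKO library of day 2, 4 genes were called, with Cldn6 lower and Tjp3 higher in fullKO. On day 4, 9 genes were higher in fullKO (15.4% of all genes), by 0.67 for Cldn7 to 1.11 for Cldn4, and Tjp3 was not called (0.38, adjusted p = 0.112). All fullKO libraries exceeded all alphaKO libraries for all 10 genes on day 4, while 44.1% of all genes had non-overlapping libraries. For 8 of the 10 genes, all but Epcam and Tjp3, the day 4 fullKO libraries lay between those of alphaKO and WT without overlap. The share of all genes in this order was not computed. By pairs, 58.7% of all genes did not overlap between alphaKO and WT on day 4, and 56.0% between fullKO and WT.

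Within the knockouts, 9 genes were called from day 0 to day 2 in alphaKO (67.9% of all genes) and 9 in fullKO (64.9%), and all 10 from day 0 to day 4 in each (75.9% and 74.0%). From day 2 to day 4, 9 were called in alphaKO (58.1%) and 10 in fullKO (58.5%). The change since day 0 itself differed from that of WT, by the interaction term of the fit, for 8 genes on day 2 (32.1% of all genes) and 9 on day 4 (44%) in alphaKO. In fullKO it differed for 7 genes on day 2 (28.8%) and 5 on day 4 (35.1%). Leaving out 1 library at a time took the fullKO day 2 count to between 5 and 7. WT day 4 was the highest of the 9 groups for 7 genes, and WT day 0 was the highest for Epcam and Esrp1. For Tjp3 the highest mean was fullKO day 0, which overlapped the other day 0 groups. The counts on these orders of group means were not computed over all genes. Of the 80 pairs of neighbours in the orders of the 10 genes, 30 overlapped in their libraries. Krt8, for example, ran from WT day 4 (743 ± 39.5 CPM, SD, n = 3) through fullKO day 4 (497.5 ± 58.4), WT day 2 (385 ± 4.94), alphaKO day 4 (255 ± 48.9) and alphaKO day 2 (203 ± 11.8), which overlapped fullKO day 2 (186 ± 10.2).

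Over the 9 group means of log2 CPM, Krt8 correlated with Krt18 at r = 0.991 and with Krt19 at 0.962. Epcam and Esrp1 had r = 0.907, Cldn6 and Cldn7 0.930 and Cldn4 and Cldn6 0.850, while Krt8 and Tjp3 had -0.904. These are descriptions over group means that share genotype and day. Among 12014 protein-coding genes, those most like Krt8 were Zfp641, Dsp, Mettl6, Tmem184c and Numb, with r from 0.9920 to 0.9954. Those most like Esrp1 were Syt5, Epha1, Dll3, Parp9 and Grhl1 (0.9370 to 0.9416). Those most like Cdh1 were Klc3, CAAA01147332.1, Pkp2, Ltbp4 and Itga7 (0.9444 to 0.9777). Dsp encodes desmoplakin, which anchors keratin filaments to desmosomes, and Pkp2 encodes plakophilin 2, another desmosome protein. Dsp stood at 11.4 ± 0.96, 346 ± 3.22 and 491.5 ± 11.6 CPM in WT on days 0, 2 and 4 (SD, n = 3), and at 190 ± 33.7 in alphaKO and 299 ± 15.2 in fullKO on day 4.

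Other genes of the same structures were described from lists. The counts of every list below stand beside these shares of all genes. In alphaKO 20.9%, 20.3% and 23.9% of all genes were lower on days 0, 2 and 4, and in fullKO 17.9%, 23.8% and 24.6%. On day 0, 17.6% were higher in alphaKO and 16.3% in fullKO, and the shares higher on later days are not given here. Among 13 tested cadherin-catenin and desmosome genes, 9 were lower and 1 higher in alphaKO on day 2, and 12 lower and 1 higher on day 4. In fullKO 10 were lower on day 2 and 10 on day 4, when 3 were higher. Ppl, encoding periplakin, differed by -3.14 in alphaKO and -1.41 in fullKO on day 4, and Perp, a desmosome-associated membrane protein, by -2.16 and -1.58. On day 0 the list was balanced in both lines, with 3 genes higher and 3 lower in each. The median of this list on day 4 was -1.13 in alphaKO and -0.72 in fullKO.

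Of 17 other tight junction genes, 8, 13 and 12 were lower in alphaKO on days 0, 2 and 4 and 6, 12 and 10 in fullKO. At most 3 were higher in either line on any day. Upward differences were among the largest of the list, called or not. Its values ran from -1.72 to 3.12 in alphaKO on day 0. In fullKO they ran from -1.84 to 2.41 on day 0 and from -2 to 2.28 on day 2. The genes named next are lower ones. Cldn3, 39279 bases from Cldn4, differed by -0.77, -1.77 and -2.44 in alphaKO on the 3 days and by -1.50 and -1.03 in fullKO on days 2 and 4. Cldn9, whose annotated end lies 137 bases from Cldn6 on the opposite strand, differed by -1.74 and -1.66 in alphaKO on days 2 and 4. Both neighbours were low, at or below 8.35 CPM in every group mean, and Cldn9 and Cldn6 face end to end. Cgn, encoding the junction protein cingulin, differed by -1.79 in alphaKO and -1.29 in fullKO on day 4. Of 12 epithelial surface and sorting genes, 7, 10 and 11 were lower and 2, 0 and 0 higher in alphaKO on days 0, 2 and 4. In fullKO 4, 10 and 9 were lower and 4, 1 and 0 higher, so its day 0 calls were balanced (median -0.14). Ap1m2, an epithelial sorting adaptor subunit, differed by -1.69, -2.03 and -1.50 in alphaKO on these days and by -2.01, -1.65 and -1.49 in fullKO. Of the 9 tested polarity genes, 2, 3 and 6 were lower and 3, 1 and 2 higher in alphaKO on days 0, 2 and 4. In fullKO 1, 6 and 5 were lower and 3, 1 and 1 higher. Their medians were -0.06 and -0.48 in alphaKO and -0.26 and -0.37 in fullKO on days 2 and 4. Crb3, a Crumbs polarity protein, differed by -1.55 in alphaKO and -1.48 in fullKO on day 2. Of 6 tested other keratins, 0, 2 and 4 were lower and 2, 0 and 1 higher in alphaKO on days 0, 2 and 4. In fullKO 1, 3 and 4 were lower and 3, 1 and 0 higher. Krt7, a keratin of simple epithelia, differed by -2.17 in alphaKO and -1.29 in fullKO on day 4. Krt42 and Krt17 were higher on day 0 in both lines, by 1.63 and 0.63 in alphaKO and by 2.53 and 1.91 in fullKO.

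Regulators of epithelial genes were called in both directions. Of 11 tested epithelial regulators, 4, 7 and 7 were lower and 3, 3 and 2 higher in alphaKO on days 0, 2 and 4. In fullKO 3, 6 and 6 were lower and 4, 3 and 3 higher. Grhl2, a grainyhead transcription factor of epithelia, stood at 51.6 ± 4.18 CPM in WT, 5.32 ± 0.444 in alphaKO (SD, n = 3) and 13.6 ± 1.03 in fullKO (SD, n = 2) on day 0. Its alphaKO differences from WT were -3.28 ± 0.12, -2.03 ± 0.14 and -2.13 ± 0.16 on days 0, 2 and 4, and the fullKO difference on day 0 was -1.92 ± 0.12. Elf3, an epithelial ETS factor, was higher on day 2 in both lines, at 101 ± 8.37 and 100.7 ± 2.95 CPM against 20.6 ± 1.41 in WT, and stayed higher on day 4 (1.69 and 1.77). Esrp2 was singled out after its values were seen, as the paralog of Esrp1. It rose in WT while Esrp1 fell, from 14.2 ± 0.525 CPM on day 0 to 44.9 ± 5.65 on day 4, and also rose in both knockouts. Its differences from WT were -0.68, -0.99 and -1.11 in alphaKO and -0.82, -1.11 and -0.65 in fullKO on days 0, 2 and 4. Of 10 other splicing regulators, 6, 4 and 3 were lower and 1, 3 and 5 higher in alphaKO on days 0, 2 and 4. In fullKO 3, 5 and 5 were lower and 1, 3 and 5 higher. Celf2, a regulator of alternative splicing, was lower in all 6 of these comparisons, by log2 differences of -0.67 to -1.30.

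In both knockouts more of the listed mesenchymal genes were called lower than higher on each day. Of 8 mesenchymal transition factors (the Snai, Twist, Zeb and Prrx1 genes), 7 were lower and 0 higher on day 0 in each knockout. On day 2, 5 were lower and 1 higher in alphaKO and 4 lower and 2 higher in fullKO, and on day 4, 3 were lower in each with 1 higher in alphaKO. Prrx1 differed by -1.71 and -1.64 in alphaKO and -3.36 and -2.02 in fullKO on days 2 and 4, and Zeb1 was higher in alphaKO on day 4 by 0.39. Of 8 other mesenchymal genes, 5 were lower on each day in alphaKO, and 3, 2 and 1 were higher on days 0, 2 and 4. In fullKO 5, 5 and 4 were lower, and 2 were higher on each day. In alphaKO S100a4, a calcium-binding protein of fibroblasts, was lower on day 4 (-1.95), and Tgfbi, an extracellular matrix protein, was higher on day 2 (2.38). The fibroblast list moved with these genes: 9, 8 and 7 of its 10 members were lower in alphaKO and 9, 9 and 7 in fullKO on days 0, 2 and 4.

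**Figure D4:**
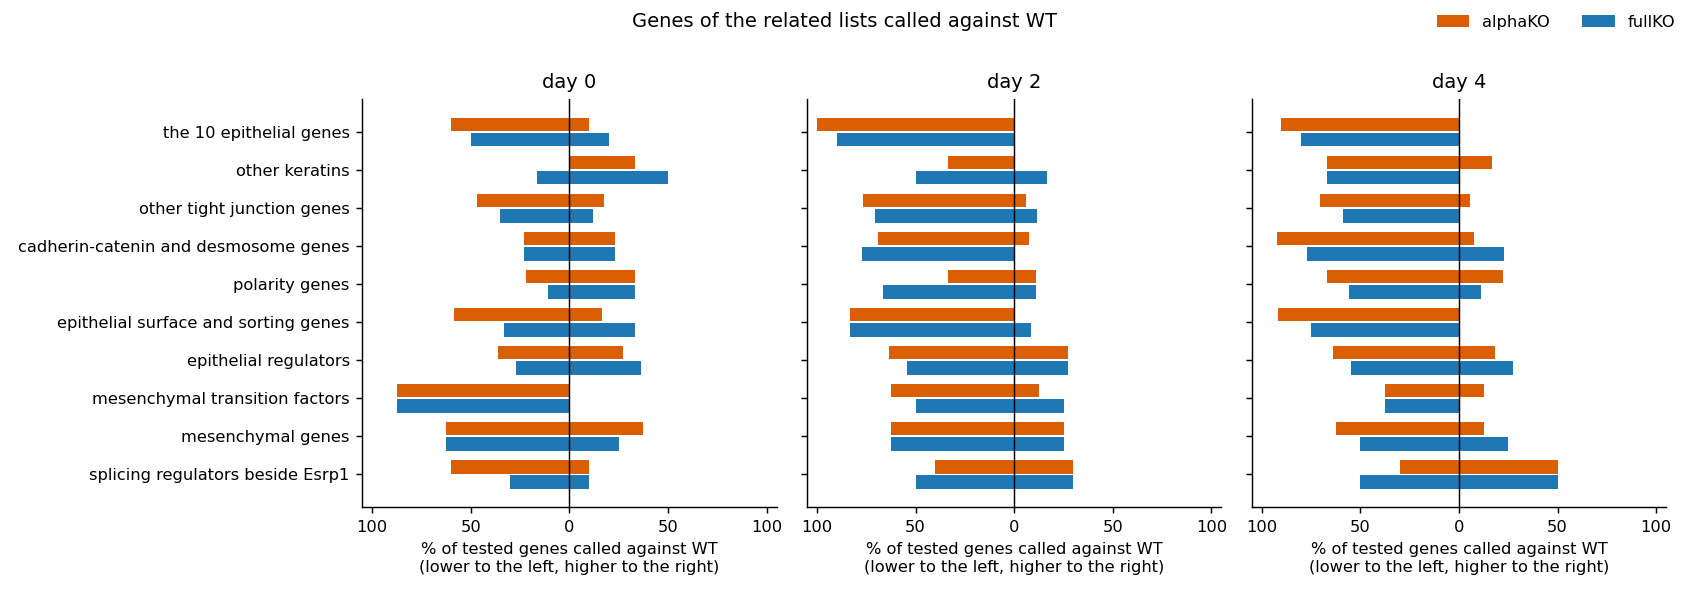
Percent of the tested genes of each list that were called lower (left of 0) or higher (right of 0) than WT in alphaKO and fullKO on each day. On day 2 the 10 epithelial genes reach 10 of 10 lower in alphaKO and 9 of 10 in fullKO, and transition factors lie to the left on day 0.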

How the data were processed

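RNA-seq counts per gene came from the table the authors deposited, 1 column per library. Reads were aligned to mm10 with STAR 2.7.1a after FastQC, per the submitters' processing notes, and libraries were made with the KAPA Stranded mRNA-Seq kit, per the labels' protocols. For the counting tool, its strand setting and the annotation: not given in the sources used here. Gene positions and exon lengths came from GENCODE M21, which matched 55230 of 55471 identifiers, 54573 of them at the same version.

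Counts were tested in R 4.3.3 with edgeR 4.0.16 (filterByExpr, TMM scaling, robust quasi-likelihood fit). All 9 groups entered 1 fit with 17 residual degrees of freedom, and p-values were adjusted by Benjamini-Hochberg over 18412 genes and called at 0.05. Printed CPM are counts scaled by TMM-adjusted library totals, and SEs of log2 fold changes are Wald errors. Normalization factors ran from 0.898 to 1.10. Replicates were compared for identity, and none were duplicates. Same-numbered libraries of alphaKO on days 2 and 4 deviated together (every correlation of deviations from the group means over 0.1, from 0.102 to 0.174), as seen in the data and not given by the labels. This was met by 1 of 18 group pairs. The reported fit used no pairing, and a replicate block was run only as an alternative. Same-day comparisons of the 2 knockouts share the WT libraries. On simulated counts for alphaKO against WT on day 0 (16075 genes), 84 of 100 genes changed 1.5-fold and 98 of 100 changed 2-fold were found, with 10 false calls.

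The genes and lists were chosen with earlier results of these data known. All 10 genes are named. The naming rule allowed up to 4 called genes of the largest log2 change in each other list per comparison. Not all of those are named, and Esrp2 was singled out after its values were seen. Also named are the 5 genes most correlated with Krt8, Esrp1 and Cdh1 among those with a group mean of at least 5 CPM. Of the lists' names, Pals1 (a synonym of Mpp5) was not in the table. DESeq2 1.42.0, RLE scaling, other filters, a replicate block, fits of only the groups compared and leaving out each library were tried as alternatives. Figures were drawn in Python 3.11.15 with matplotlib 3.10.9.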

Additional observations from a re-analysis of the deposited data

Results flagged for a closer look

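The change since day 0 in a knockout was compared with the change in WT by an interaction term in the edgeR fit, and 29 such differences had an adjusted p under 0.05. All are given as the knockout's log2 change minus that of WT. Since each rests on the day 0 groups as well, a gene already different on day 0 starts from another level.

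In alphaKO from day 0 to day 2 the differences were -2.04 for Krt8, -2.34 for Krt19, -0.88 for Cdh1, -0.97 for Esrp1, -1.02 for Cldn4, -1.01 for Cldn6, -1.21 for Cldn7 and -0.71 for Tjp3. The Tjp3 value was lost without alphaKO replicate 1 of day 2 (-0.58, adjusted p = 0.0851) or replicate 3 of day 0 (-0.58, adjusted p = 0.0737). From day 0 to day 4 they were -2.66 for Krt8, -1.35 for Krt18, -2.96 for Krt19, -1.63 for Cdh1, -1.57 for Cldn4, -1.10 for Cldn6 and -0.58 for Cldn7. Epcam (0.29) and Esrp1 (0.52) went the other way, since both fell less in alphaKO than in WT over that interval. The Cldn7 value was lost without WT replicate 3 of day 0 (-0.46, adjusted p = 0.0539) or alphaKO replicate 3 of day 0 (-0.43, adjusted p = 0.0918).

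In fullKO from day 0 to day 2 the differences were -1.95 for Krt8, -1.70 for Krt19, -0.81 for Cdh1, -0.87 for Esrp1, -1.78 for Cldn4, -0.94 for Cldn6 and -0.82 for Cldn7. The Krt19 value (adjusted p = 0.0349) was lost without WT replicate 2 or 3 of day 0 and without either fullKO library of day 0, with adjusted p from 0.0501 to 0.272. The Cldn7 value was lost without the second fullKO library of day 0 (-0.47, adjusted p = 0.22). From day 0 to day 4 they were -1.48 for Krt8, -0.56 for Cdh1 and -1.56 for Cldn4, and 0.95 for Epcam and 0.54 for Esrp1.

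Krt19 had 14 to 67 counts in the day 0 libraries, so its differences have wide errors (0.42 to 0.55 on the log2 scale where called).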

How the results depend on the processing

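Of 2820 values of the 10 genes over the 32 alternative settings, 2756 kept their direction and side of the threshold and 64 did not. The count of called genes left the 1.5-fold range of its reported value in 1 comparison, fullKO against alphaKO on day 2, at 6 against 2 when only those groups were fitted and 2 to 4 when 1 library was left out. The cause was not tested. The values that changed sign were not called in the reported fit: Tjp3 in fullKO against WT on day 0 went from -0.001048 to 0.006237 with no filter, 0.01051 with the replicate block and 0.008168 with only those groups, and Krt18 in fullKO against alphaKO on day 0 went to -0.00566 with only those groups. With 1 library left out the sign changed for Cdh1 in WT day 4 against day 2 (range -0.001221 to 0.03762), Cldn7 in fullKO day 2 against day 0 (-0.2133 to 0.4316) and Tjp3 in alphaKO against WT on day 4 (-0.1609 to 0.02672). It also changed in fullKO against WT for Krt19 (-0.5178 to 0.1011) and Tjp3 (-0.08402 to 0.09342) on day 0 and Epcam (-0.09318 to 0.02136) on day 4. The others were Krt18 (-0.07235 to 0.05117) and Cldn7 (-0.4741 to 0.171) in fullKO against alphaKO on day 0, and Cldn6 (-0.1088 to 0.09391) and Cldn7 (-0.06995 to 0.5756) in the fullKO interaction of day 4.

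In 1 of 18 group pairs, alphaKO on days 2 and 4, every same-number pair of libraries had a correlation of deviations over 0.1, and the replicate block changed no call between those groups. Over all groups 10 of 50 same-number pairs passed 0.1, with a range of -0.217 to 0.218. The replicate block lost the Epcam call in fullKO against alphaKO on day 0 (0.14, adjusted p = 0.0575), added Cldn6 there (-0.25, adjusted p = 0.0496) and changed no other call. DESeq2 gained 6 calls. They were Krt19 in alphaKO against WT (0.76, adjusted p = 0.00593) and lower in fullKO than alphaKO (-0.96, adjusted p = 0.00421) on day 0, the Krt18 interactions of day 2 in alphaKO (-0.45, adjusted p = 0.0436) and fullKO (-0.49, adjusted p = 0.0432), and those of Krt18 (-0.51, adjusted p = 0.0308) and Krt19 (-1.20, adjusted p = 0.00204) in fullKO on day 4. Fits of only the groups compared gained 8, including the same Krt19 and day 2 Krt18 values (adjusted p = 0.00491 to 0.0396). Depth limits Krt19 on day 0, where libraries held 14 to 67 counts, and Tjp3, with 28 to 320 counts over all libraries.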

Other observations

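Ratios of CPM per kilobase between partner genes also differed by genotype. The Krt18 level was 1.82 to 2.81 times the Krt8 level in the WT libraries of day 0, against 0.9 to 1.06 in alphaKO and 1.03 to 1.31 in fullKO. On day 2 the order was the opposite, with ratios of 1.31 to 1.39 in WT, 1.71 to 1.77 in alphaKO and 1.83 to 1.86 in fullKO. By day 4 the ranges were 1.43 to 1.51, 1.51 to 1.6 and 1.36 to 1.46. The ratio of Cldn6 to Cldn4 on day 0 was 1.13 to 1.29 in WT, 0.768 to 0.805 in alphaKO and 0.293 to 0.325 in fullKO. No test was run on these ratios.

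Markers of other epithelial cell types were summed over lists. On day 4, 12 genes of primitive and visceral endoderm summed to 2823 to 2995 CPM in WT, 3757 to 4209 in alphaKO and 2600 to 3091 in fullKO. On the same day 8 trophectoderm genes summed to 89.4 to 100.2, 101 to 108 and 104 to 110.3 CPM. The 6 surface ectoderm genes include Krt5 and Krt14. They summed to 131 to 140.4 CPM in WT, 46.04 to 66.4 in alphaKO and 48.1 to 66.8 in fullKO. Of the 4 tested, 3 were lower in alphaKO (23.9% of all genes were) and 3 in fullKO (24.6%), where 1 was higher. The part of any of these cell types in the keratin differences was not tested.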
